A study of Mus musculus with 18 samples.

Results

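The main cluster of replication-dependent histone genes of the mouse lies on chromosome 13, and the peaks described here are those that overlapped chromosome 13 from 21.75 to 23.9 Mb (build NCBIM37) in 8 lists of histone mark peaks. Its peaks were taken by position. The window held 471 of the 225177 peaks in all lists. For H3K4me3, the trimethylation of lysine 4 of histone H3 found at active promoters, these were 92 of 23808 peaks in the GFP library and 82 of 22621 in the Cre library. For H3Ac, pan-acetylated histone H3, also found at active promoters and enhancers, they were 107 of 48778 and 98 of 42660 peaks. For H3K27me3, the mark of Polycomb complexes at silent genes, they were 30 of 36059 and 39 of 36381 peaks. For H3K9me3, a mark of heterochromatin, they were 18 of 10885 and 5 of 3985 peaks.

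Mouse embryonic fibroblasts (MEFs) of mixed B6;129 background, all with a conditional knockout allele of Rb, received either adenovirus with Cre recombinase to remove Rb, or adenovirus with GFP as the control. Both cultures were without the 4F construct used elsewhere in the study and were expanded for up to 3 passages before chromatin immunoprecipitation and sequencing. The comparison of Cre with GFP addresses how loss of Rb, a tumour suppressor that binds E2F transcription factors, relates to the histone landscape. The completeness of the deletion and the markers of fibroblasts were not analysed here, since the lists carry no gene names.

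Most histone protein is made in S phase from replication-dependent genes, which lack introns and give mRNAs that end in a stem-loop in place of a poly(A) tail. Their copies lie close together, H2A and H2B genes often as divergent pairs that share 1 promoter region, and the cluster gathers in the nucleus in the histone locus body, where the factor NPAT drives transcription once cyclin E and its kinase are active. Rb restrains entry into S phase by holding E2F factors, and E2F factors bind the promoters of NPAT and of some histone genes.

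The genes of the cluster are given from the RefSeq table of another build, GRCm38.p6, for names, order and promoter letters only. No coordinate was carried between builds and no peak was assigned to a gene. In that table the run holds 56 histone genes, of which 54 are listed as protein coding: 6 of linker histone H1, 15 of H2A, 15 of H2B, 9 of H3 and 11 of H4. The order is 24 histone genes, then a run of 75 Vmn1r genes and pseudogenes (vomeronasal pheromone receptors, used in the sensory organ of the nose), then 32 histone genes. The coding neighbours Zfp184, Pom121l2 and Prss16 stand with the first set. Zfp322a, Abt1, the butyrophilin genes Btn1a1 and Btn2a2, the iron regulator Hfe, Trim38 and the anion transporter genes Slc17a1, Slc17a2, Slc17a3 and Slc17a4 stand with the second. The run also holds 77 tRNA genes.

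The promoters of 5 of these genes are shown as examples of the families of the cluster. They are the first in chromosome order of the H1, H2A, H3 and H4 genes with a sequence, and the first H2B gene with an E2F-type match. Each is the 250 bases before the gene's start in RefSeq GRCm38.p6, chromosome 13, 5′ to 3′ on the gene's own strand, which is the minus strand for H1f5 and the plus strand for the others. Capitals mark matches on either strand. The TATA box was searched as TATAAA, where the basal transcription machinery docks on many promoters. The CCAAT box was searched by its own letters and is bound by the factor NF-Y. The octamer was searched as ATTTGCAT and is bound by OCT1 at H2B promoters. The H1 box, an element known from H1 promoters, was searched as AAACACA. The E2F-type element was searched as TTTNGCGC.
H1f5: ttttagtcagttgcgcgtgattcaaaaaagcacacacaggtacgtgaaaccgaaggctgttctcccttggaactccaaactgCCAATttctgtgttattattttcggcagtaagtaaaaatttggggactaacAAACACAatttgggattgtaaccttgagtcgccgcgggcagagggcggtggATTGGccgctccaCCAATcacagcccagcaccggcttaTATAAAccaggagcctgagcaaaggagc
H2ac13: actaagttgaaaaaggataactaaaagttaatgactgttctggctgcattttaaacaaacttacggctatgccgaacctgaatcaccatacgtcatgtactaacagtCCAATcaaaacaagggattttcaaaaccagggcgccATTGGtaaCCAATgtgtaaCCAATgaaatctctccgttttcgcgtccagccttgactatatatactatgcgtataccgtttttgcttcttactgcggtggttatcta
H2bc14: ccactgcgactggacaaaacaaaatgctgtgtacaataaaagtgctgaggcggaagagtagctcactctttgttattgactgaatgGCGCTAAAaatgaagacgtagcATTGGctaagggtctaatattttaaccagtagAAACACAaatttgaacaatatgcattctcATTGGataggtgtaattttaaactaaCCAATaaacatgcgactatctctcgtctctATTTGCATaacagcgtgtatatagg
H3c10: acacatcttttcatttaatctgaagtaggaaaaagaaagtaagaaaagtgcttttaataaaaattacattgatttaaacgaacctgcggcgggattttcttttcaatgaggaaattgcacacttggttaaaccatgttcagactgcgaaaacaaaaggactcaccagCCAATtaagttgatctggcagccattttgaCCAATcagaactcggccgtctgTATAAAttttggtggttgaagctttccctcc
H4c11: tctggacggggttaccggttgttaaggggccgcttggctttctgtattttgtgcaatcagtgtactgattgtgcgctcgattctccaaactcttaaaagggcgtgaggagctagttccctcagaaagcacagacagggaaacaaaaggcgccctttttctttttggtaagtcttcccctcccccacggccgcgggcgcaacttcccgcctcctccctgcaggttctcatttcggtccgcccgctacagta

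H1f5 shows the layout of an H1 promoter, with the H1 box at -117, CCAAT boxes at -66 and -53 and the TATA box at -28, counted to the first base of each match from the start. H2bc14 holds 4 of the 5 elements and lacks the TATA letters: the E2F-type match at -164, CCAAT boxes, an H1 box at -110 and the octamer at -25. H3c10 has 2 CCAAT boxes and a TATA box at -31. H2ac13 has 4 CCAAT boxes and none of the other letters, and H4c11 has no match in these 250 bases. Of the 56 genes, 51 matched a promoter sequence, with 52 sequences between them. CCAAT was found in 44 of the 52 (84.6%, against 33.8% of all 32851 promoters of the same length). It was in every H1, H2A, H2B and H3 promoter and in 3 of 11 H4 promoters. TATAAA was in 26 (50%, against 12.4%), spread over all families. The octamer was in 11 (21.2%, against 1.6%), which were 5 of 13 H2A and 6 of 15 H2B promoters. The E2F-type letters were in 11 (21.2%, against 1.13%), 4 of them H2A and 7 H2B promoters. AAACACA was in 9 (17.3%, against 6.25%), with 5 of the 6 H1 promoters among them. No matches of different motifs shared bases in these 52 sequences. Stretches of divergent neighbours may overlap, so a site could be counted for both genes, and such overlaps were not removed. A match describes the letters only.

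Each mark had 1 library per condition, so no difference between Cre and GFP has a replicate check and no p-value is given. The number of reads is unknown from peak lists. Intervals are 95% intervals (exact binomial for shares, order statistics for medians). They cover counting error only and treat neighbouring peaks as independent. The authors' score was used to rank peaks within a list. Scores of GFP and Cre are printed side by side to describe peaks, but their sizes are not comparable between lists. The median H3K4me3 score was 565 in the GFP list and 887 in the Cre list. In a pool of cells, fewer cells with a mark and less of the mark per cell cannot be told apart.

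H3K4me3 and H3Ac fell into a pair of dense blocks at nearly the same edges in both conditions. The first block, chr13:21801084-22143948, was 342.9 kb long. The second, chr13:23361462-23865241, was 503.8 kb long. Between them lay 1218 kb with no H3Ac peak in either library. The map of the window shows this layout. In the first block GFP had 43 H3K4me3 and 46 H3Ac peaks, and Cre 40 and 42. In the second block GFP had 48 and 61, and Cre 41 and 56.

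**Figure D1:**
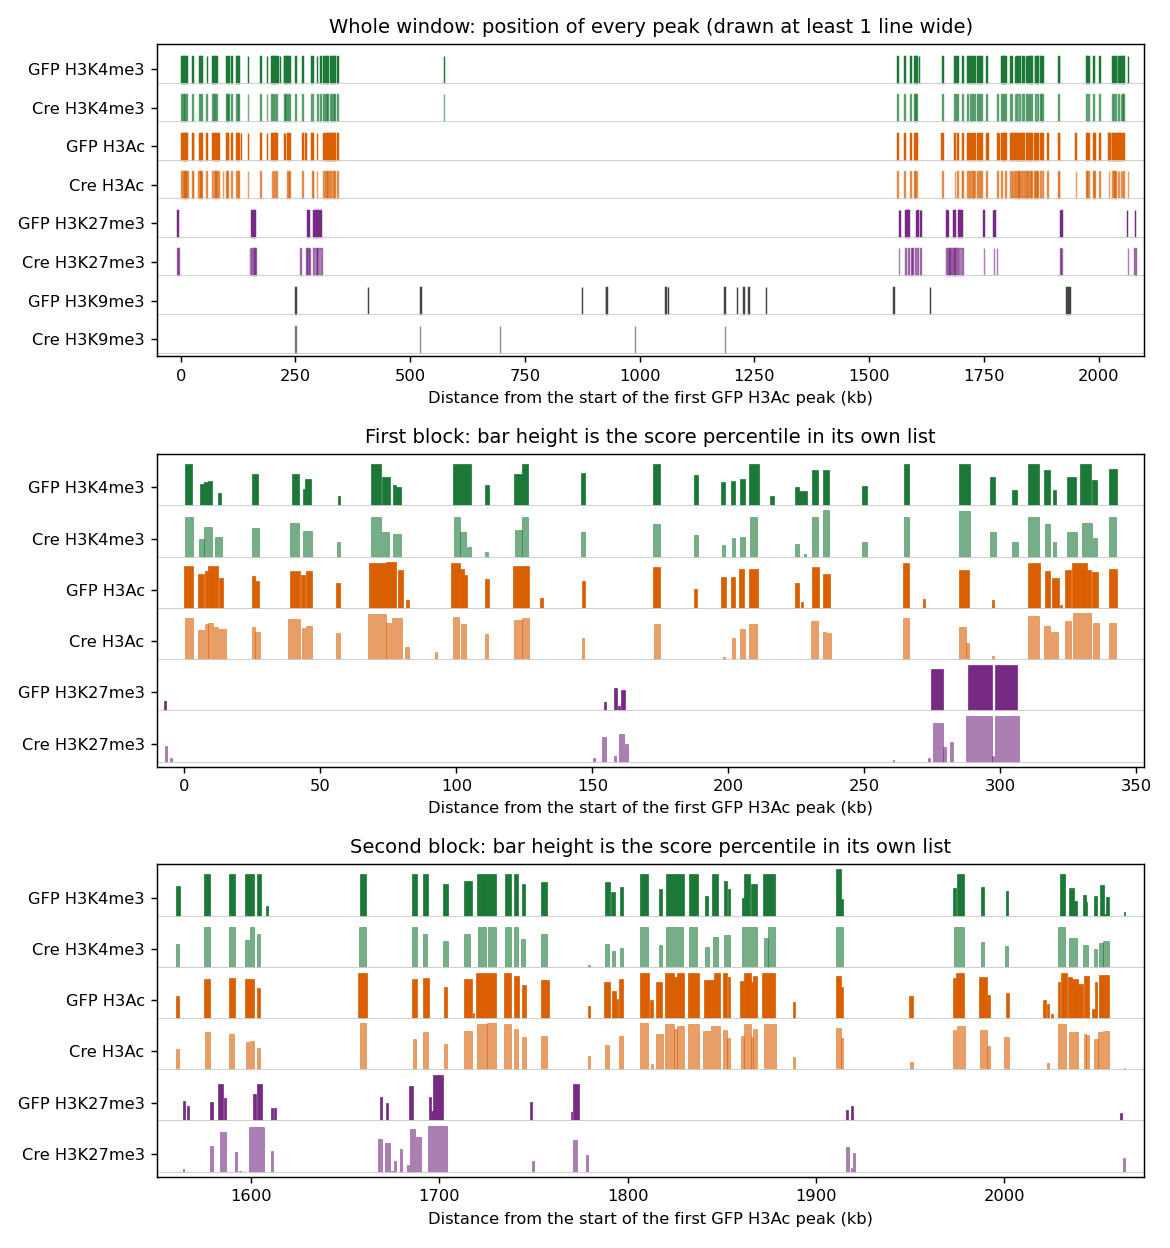
Peaks of the window by distance in kb from the start of the first GFP H3Ac peak, 1 row per library. The top panel gives the position of every peak, and the lower panels give H3K4me3, H3Ac and H3K27me3 in each block with bar height as score percentile in the peak's own list. All H3Ac peaks and all but 1 H3K4me3 peak per library lie in the 2 blocks, with 1218 kb between them.

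The single H3K4me3 peak between the blocks was weak and narrow. It spanned 575 bases at chr13:22373902-22374476 in GFP, with a score of 74.6, and 395 bases at chr13:22374063-22374457 in Cre, with a score of 116. It was the narrowest H3K4me3 peak of the window in both libraries and made a group of its own, since a group ended where 100 kb or more held no peak of the list. H3K4me3 thus formed 3 groups in each library and H3Ac 2. The longest gaps were 987 kb after this peak and 230 kb before it, in both H3K4me3 lists. The next gap, inside the second block, was 58.5 kb in GFP (chr13:23715476-23774021) and 58.9 kb in Cre. H3Ac had its next gaps in the second block too, of 52.0 and 35.1 kb in GFP and 53.0 and 35.8 kb in Cre. The gap positions differed little between conditions, as the second H3Ac gap shows, at chr13:23406174-23458196 in GFP and chr13:23405931-23458914 in Cre.

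The block edges were sharp on the left. The first peak of both marks overlapped in all 4 libraries at chr13:21801084-21804285, with H3K4me3 scores of 3100 in GFP and in Cre and H3Ac scores of 2463 and 2023. No H3K4me3 or H3Ac peak lay in the 177 kb before it. The first block ended at chr13:22141010-22143948, where the H3K4me3 score was 2942 in GFP and 3100 in Cre, and the H3Ac score 1550 and 1027. The second block began at chr13:23361462-23363396, with H3K4me3 scores of 1214 and 846 and H3Ac scores of 199 and 178. Its right edge was set by weak peaks. The last GFP H3K4me3 peak (chr13:23864464-23865241, score 62.8) and the last Cre H3Ac peak (chr13:23864566-23865227, score 52.2) overlapped each other and had no counterpart of the same mark. Without these, both marks ended near 23856669, the end of a GFP H3Ac peak with a score of 2879. Beyond the right edge the next peak lay 160 kb away in GFP H3K4me3, 514 kb in Cre H3K4me3, 330 kb in GFP H3Ac and 59.7 kb in Cre H3Ac.

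The window was among the most H3K4me3-dense stretches of the genome, and less so in H3Ac. The autosomes were cut into 1140 windows of the same 2.15 Mb. By number of H3K4me3 peaks the histone window had rank 14 in GFP and 13 in Cre, with a median of 15 peaks per window in both lists. By bases covered with H3K4me3 it had rank 3 in GFP and 6 in Cre, at 219 kb and 214 kb. By number of H3Ac peaks it had rank 60 and 61, with medians of 35 and 30 peaks, and by bases covered rank 24 and 31, at 268 kb and 236 kb. Within the blocks H3K4me3 covered 27% of the first and 25% of the second in GFP, and 26.6% and 24.4% in Cre.

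**Figure D2:**
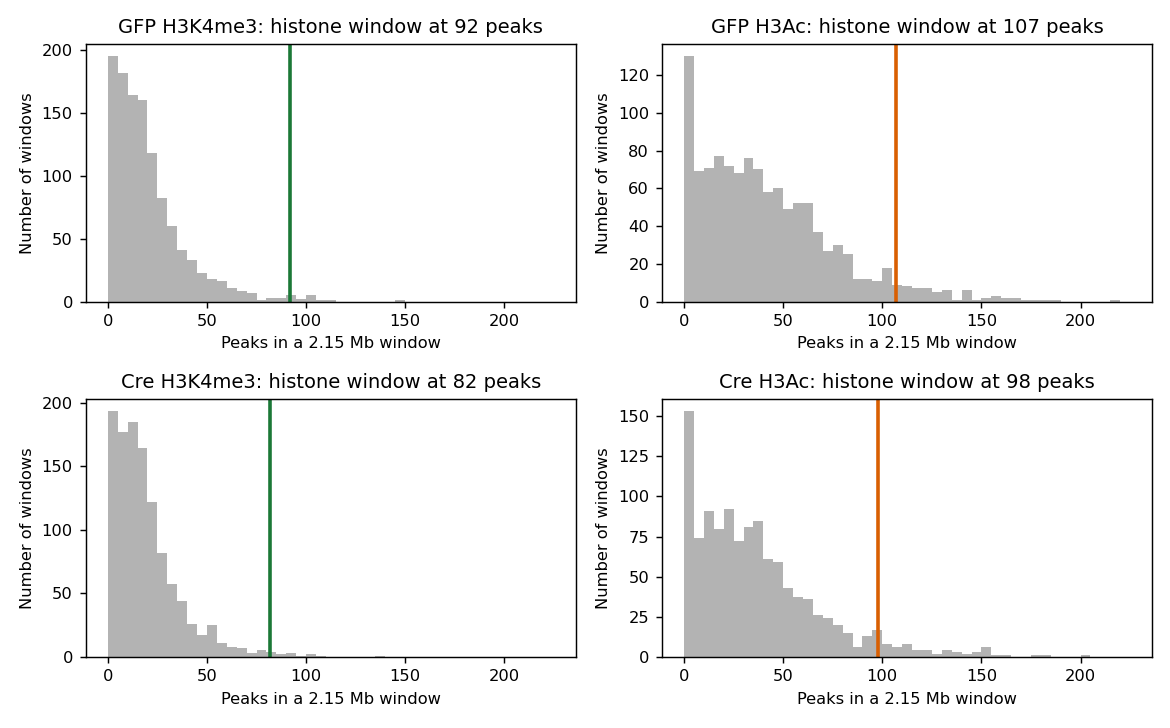
Number of H3K4me3 or H3Ac peaks (x axis) in the 1140 autosomal windows of 2.15 Mb (y axis, number of windows), 1 panel per library. The coloured line marks the histone window, at 92 and 82 H3K4me3 peaks, near the upper end, and at 107 and 98 H3Ac peaks, further inside the distribution.

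Peaks of the window were wider than those of the lists. The median H3K4me3 width was 1987 bases (1640 to 2370) in GFP, against 1376 in the list, and 2356 bases (2169 to 2695) in Cre, against 1606. The median H3Ac width was 2195 bases (1768 to 2598) in GFP, against 1447, and 2045 bases (1804 to 2355) in Cre, against 1408. Between neighbouring peaks the median H3K4me3 spacing was 3251 bases (2410 to 5473) in GFP, against 25739.5 over the list, and 4021 (2411 to 7304) in Cre, against 29407. The median H3Ac spacing was 1710 bases (1020 to 3055) in GFP, against 8958, and 2535 (1619 to 4849) in Cre, against 10944.5. Short spacings under 1 kb made up 20 of 91 H3K4me3 spacings in GFP (22.0%, list 23.1%) and 10 of 81 in Cre (12.3%, list 20.4%). In H3Ac they made up 42 of 106 (39.6%, list 23.8%) and 33 of 97 (34.0%, list 24.1%). Merging peaks within 1 kb left 65 H3Ac peaks in each library and raised their median spacing to 7349 and 7578 bases, whereas H3K4me3 had 72 peaks in each with medians of 5473 and 5621.

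**Figure D3:**
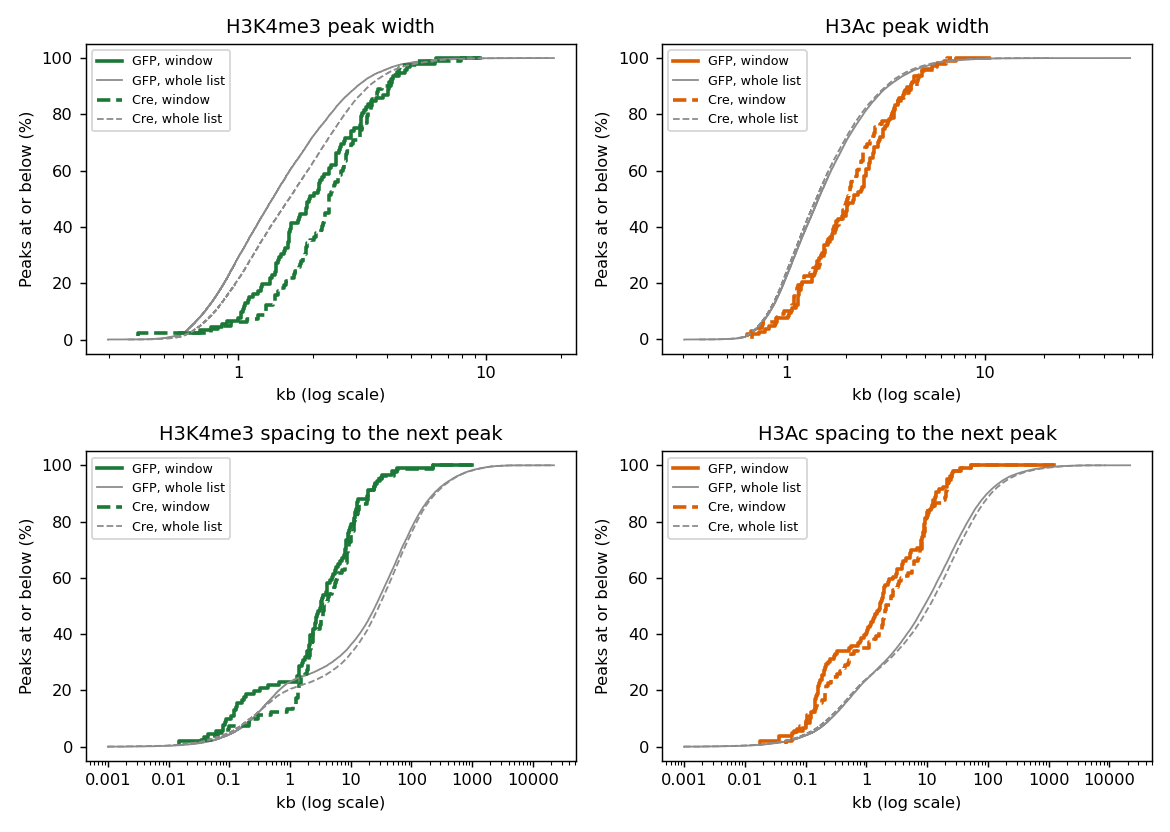
Cumulative share of peaks (y axis, %) by peak width and by spacing to the next peak (x axis, kb, log scale), for H3K4me3 and H3Ac. Coloured lines are the window and grey lines the whole list, solid for GFP and dashed for Cre, and the window's peaks are wider and closer together than those of the list, with medians of 1987 against 1376 bases and 3251 against 25739.5 bases in GFP H3K4me3.

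The widest H3K4me3 peak was the same in both libraries, 9418 bases at chr13:23621391-23630808 in GFP and 9461 bases in Cre. The next widest in GFP, 6305 bases at chr13:21900015-21906319, corresponded to 3 Cre peaks of 2159, 2229 and 1493 bases with scores of 3100, 1048 and 139. The next, 6247 bases at chr13:23672960-23679206, corresponded to 2 Cre peaks of 2238 and 3473 bases. The opposite division also occurred, since the Cre peak of 7893 bases at chr13:23661801-23669693 met 3 GFP peaks. The widest H3Ac peak, 10587 bases at chr13:23520844-23531430 in GFP, was listed in Cre as 2 peaks of 5660 and 4788 bases. In H3K4me3 both libraries had 2 peaks there. Counts of peaks thus depend on where a stretch is divided. Over 74 regions with H3K4me3 in both libraries, 59 held 1 peak in each, 11 held more GFP peaks and 3 more Cre peaks. The numbers for 87 H3Ac regions were 72, 6 and 8.

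The peaks stood high in their lists. Scores were placed from 0 (lowest) to 100 (highest of the list). The median percentile was 65.6 (57.2 to 73.1) for GFP H3K4me3, 62.5 (54.1 to 71.5) for Cre H3K4me3, 82.6 (78.2 to 84.3) for GFP H3Ac and 75.7 (69.4 to 80.5) for Cre H3Ac. Scores pile up at 3100, which many peaks share exactly, and few peaks exceed it. A score of 3100 or more was held by 30 of 92 GFP H3K4me3 peaks (32.6%, list 19.2%), 28 of 82 in Cre (34.1%, list 26.3%), 20 of 107 GFP H3Ac peaks (18.7%, list 6.57%) and 12 of 98 in Cre (12.2%, list 5.64%). The second block had the higher median in all 4 lists. Its H3K4me3 median was 70.6 against 61.1 in GFP and 70.0 against 54.2 in Cre, and its H3Ac median 84.1 against 79.4 in GFP and 78.4 against 71.4 in Cre. The block medians' intervals overlapped in all 4 lists.

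The highest scores differed in place between libraries, since only few peaks exceeded 3100. In GFP H3K4me3 it was chr13:23711915-23714395 (score 3199), and in Cre H3K4me3 chr13:22035949-22038282 (3233) and chr13:22085791-22089987 (3206). In GFP H3Ac it was chr13:21875168-21878818 (3138). In Cre H3Ac the leading peaks were chr13:23607604-23612134 (3233), chr13:22127688-22134517 (3197, also the widest at 6830 bases) and chr13:23526689-23531476 (3189). At the other end, the narrowest H3Ac peaks were 667 bases in GFP (chr13:22072597-22073263, score 83.7) and 628 bases in Cre (chr13:23502848-23503475, score 50.8).

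Most regions were marked in both conditions and by both marks. The 4 lists merged into 87 regions, 37 in the first block and 49 in the second, and 61 of the 87 (70.1%) held a peak of all 4 lists, against 29.5% of 55453 regions over the genome. The shares were 26 of 37 and 35 of 49 in the blocks. A further 8 regions held GFP H3Ac alone, 6 held H3Ac in both libraries without H3K4me3, and 4 held H3K4me3 in both without H3Ac. In GFP 85 of 92 H3K4me3 peaks (92.4%, 84.9 to 96.9) overlapped H3Ac (list 80.1%), and in Cre 74 of 82 (90.2%, 81.7 to 95.7, list 85.0%). The contrast with the lists was larger the other way. In GFP 92 of 107 H3Ac peaks (86.0%, 77.9 to 91.9) overlapped H3K4me3 (list 41.9%), and in Cre 90 of 98 did (list 51.0%). The 15 GFP H3Ac peaks without H3K4me3 were weak, with a median score of 103 against 1432 for the others.

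Few peaks lacked a counterpart in the other condition. In H3K4me3 these were 3 of 92 GFP peaks (3.26%, list 10.7%) and 1 of 82 Cre peaks (list 12.6%). The GFP peaks were chr13:23409145-23410200 (score 111), chr13:22016471-22017713 (107) and the weak one at the right edge, and the Cre peak was chr13:23580239-23581012 (60.2). In H3Ac they were 13 of 107 GFP peaks (12.1%, list 26.6%) and 2 of 98 Cre peaks (list 15.4%). Most were weak, with a median score of 86.9 for the 13. Their 3 highest were chr13:23840342-23843053 (score 693, percentile 73.2), chr13:23592710-23594736 (324) and chr13:22025635-22027170 (257). The last 2 had H3K4me3 in both libraries. The Cre ones were chr13:21893230-21893980 (73.2) and the weak last peak of the window. For both marks the GFP list is the longer. When the longer list was shortened to its best-scoring peaks, so that both had the same length, counterparts were found for 92.2% of the window's GFP H3Ac peaks and 98.0% of its Cre H3Ac peaks. Shares over the whole lists at equal length were not computed, so these values have no list value beside them.

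Regions with a peak in both libraries had much the same order in each. Spearman's rho between GFP and Cre scores was 0.91 over 74 H3K4me3 regions and 0.921 over 87 H3Ac regions, and that between summed widths 0.926 and 0.934. Between the marks rho was 0.684 over 76 GFP regions and 0.617 over 70 Cre regions. H3Ac covered more bases than H3K4me3 in 58 of the 76 and 49 of the 70. These are descriptions across regions of the same libraries.

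Within that order, the window's regions, which were not assigned to genes, stood lower in the Cre H3K4me3 list than in the GFP list. Ranks were set over regions with a peak in both libraries, leaving out those with a score of 3100 or more, whose order cannot be read. Of 41 such H3K4me3 regions 31 were lower in Cre and 10 higher, with a median difference of -9.54 percentile points. By 10 points or more 20 were lower (48.8%, 32.9 to 64.9), against 17.6% of all 13280 regions, and 5 were higher (12.2%), against 17.9%. Both blocks showed it, with 12 of 23 regions lower by that much in the first and 8 of 17 in the second. The 5 regions higher by that much all lay in the first block (21.7% of its 23). Regions chosen high in one list tend to stand lower in a second one, so the same was computed for the upper part of the GFP list. Among regions at or above the 50th percentile in GFP the shares were 55.2% of 29 in the window and 17.0% in the list. With scores of 3100 or more kept, the share was 29.7% of 74 regions, against 8.97% over the list. Elsewhere on chromosome 13 the median difference was -0.37 and 17.9% of 515 regions were lower by 10 points or more. Among 531 windows of the same length with at least 10 such regions, the median of the histone window was rank 4 from the lowest. No library was replicated, so the spread of such differences between repeats is not known.

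**Figure D4:**
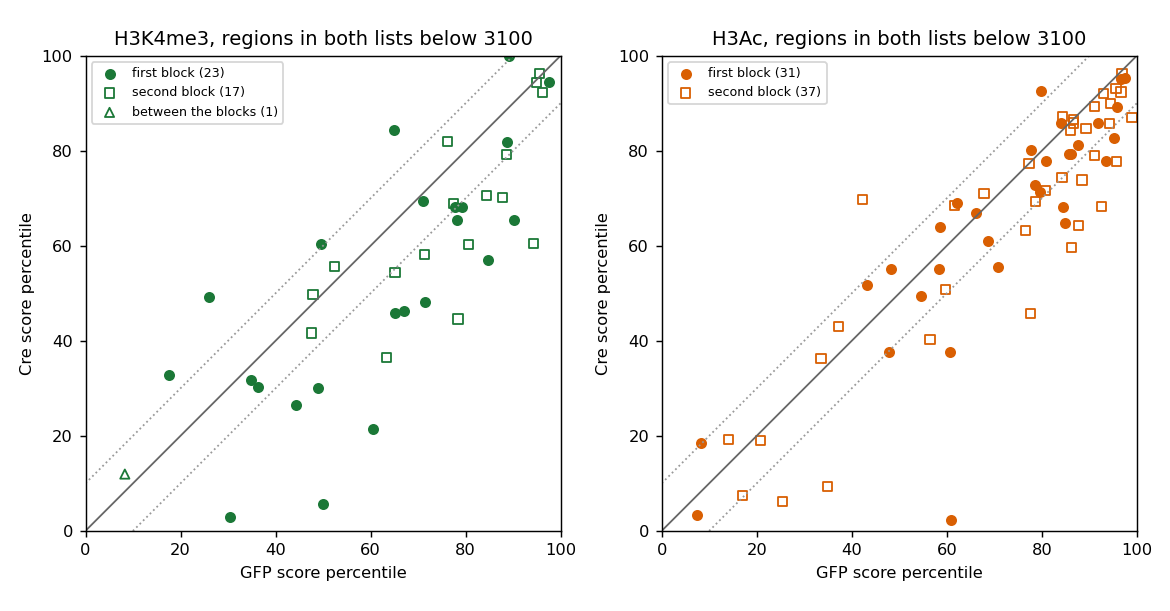
Score percentile in GFP (x axis) and Cre (y axis) of regions with a peak in both libraries and no score of 3100 or more, for H3K4me3 (41 regions) and H3Ac (68 regions). The solid line is equality, and the dotted lines are 10 percentile points away, below which lie 20 H3K4me3 and 20 H3Ac regions.

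The H3Ac ranks showed a smaller median difference. Of 68 regions 52 were lower in Cre and 16 higher, with a median of -5.49 points. By 10 points or more 20 were lower (29.4%, interval 19 to 41.7), against 22.0% of 30323 regions, and 3 were higher (4.41%), against 23.6%. The interval of the share lower includes the list's value. With only peaks scoring at least 100, the share lower was 38.7% of 62 regions, against 21.9% over the list, and at or above the 50th percentile in GFP it was 30.9% of 55, against 23.0%. The median had rank 70 from the lowest among 850 windows. For 38 pairs of overlapping H3K4me3 and H3Ac regions, 18 were lower in Cre in both marks, 4 were higher in both and 16 went opposite ways. In 7 pairs both marks were lower by 10 points or more. The share of such pairs over the genome was not computed, so these counts do not show whether the marks differed together.

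The regions with the largest differences were chosen after their values were seen. At chr13:21998254-22000128 the H3K4me3 score was 576 in GFP and 178 in Cre, and the percentile differed by -39.2 points. The H3Ac peak there had scores of 493 and 55.5 and differed by -58.5 points, and its width was 1768 bases in GFP and 726 in Cre. At chr13:23588796-23591842 H3K4me3 had scores of 2080 and 852 (-33.9 points) and H3Ac 982 and 241 (-31.8 points). The next H3K4me3 regions to the right, chr13:23592494-23594586 and chr13:23596926-23598886, differed by -26.9 and -33.8 points, so that 3 neighbours had differences of the same sign. The largest single H3K4me3 difference was at chr13:21911454-21912981, with scores of 372 and 80.4 (-44.2 points). The 2 largest in the other direction lay near the left end of the first block, at chr13:21812480-21815071 (scores of 147 and 548, +23.2 points) and chr13:21806517-21811210 (675 and 1957, +19.5 points). The H3Ac region with the largest difference upward was chr13:23800950-23803526 (264 and 598, +27.5 points).

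H3K4me3 widths went against the list as well. Over the genome 70.1% of 19333 H3K4me3 regions covered more bases in Cre than in GFP, but in the window 30 of 74 did (40.5%, 29.3 to 52.6). The shares were 15 of 36 in the first block and 15 of 37 in the second. Elsewhere on chromosome 13 the share was 70.7%. Among regions of 2000 bases or more in GFP it was 40.0% of 50 in the window and 61.2% over the list. The histone window had rank 8 from the lowest among 709 windows. In H3Ac 25 of 87 regions were wider in Cre (28.7%, 19.5 to 39.4), against 41.8% of 33794, which was rank 129 of 875 windows. The larger median width of single H3K4me3 peaks in Cre, given above, stands beside the smaller number of Cre peaks per region. With peaks at most 1000 bases apart merged, the median widths were 2565 bases in GFP and 2556 in Cre.

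H3K27me3 peaks lay in both blocks, and none was listed in the stretch between them in either library. GFP had 7 peaks in the first block and 21 in the second, and Cre had 13 and 23. The remaining ones lay just outside the outer edges of the blocks. The few strong ones were long. In the first block a neighbouring pair spanned chr13:22089119-22097933 (8815 bases, score 2134) and chr13:22099046-22107320 (8275 bases, 1674) in GFP, and chr13:22088342-22097913 (9572 bases, 2607) and chr13:22098996-22107908 (8913 bases, 2331) in Cre. In the second block the strongest was chr13:23497626-23503049 (5424 bases, 1607) in GFP and chr13:23495282-23505226 (9945 bases, 2272) in Cre. All 6 lay above percentile 97 of their lists, whereas the median percentile of the window's H3K27me3 peaks was 43.4 in GFP and 41.7 in Cre.

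These long peaks lay between and partly across H3K4me3 peaks. The pair in the first block was flanked by an H3K4me3 peak at chr13:22085791-22090112, with scores of 3100 in GFP and 3206 in Cre. A second H3K4me3 peak, chr13:22097241-22099681, lay over the short space between the pair, with scores of 1096 and 1134, and H3Ac there was listed at 78.4 and 58.2. Another, chr13:22105405-22107735, lay at the right end with scores of 217 and 257 and no H3Ac in either library. Though their Cre scores were the larger, chr13:22097241-22099681 and chr13:22105405-22107735 stood lower in Cre by rank, at -9.46 and -6.02 percentile points. In the window 7 of 92 GFP H3K4me3 peaks (7.61%) overlapped H3K27me3 (list 12.3%), and 10 of 82 Cre peaks did (12.2%, list 13.1%).

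**Figure D5:**
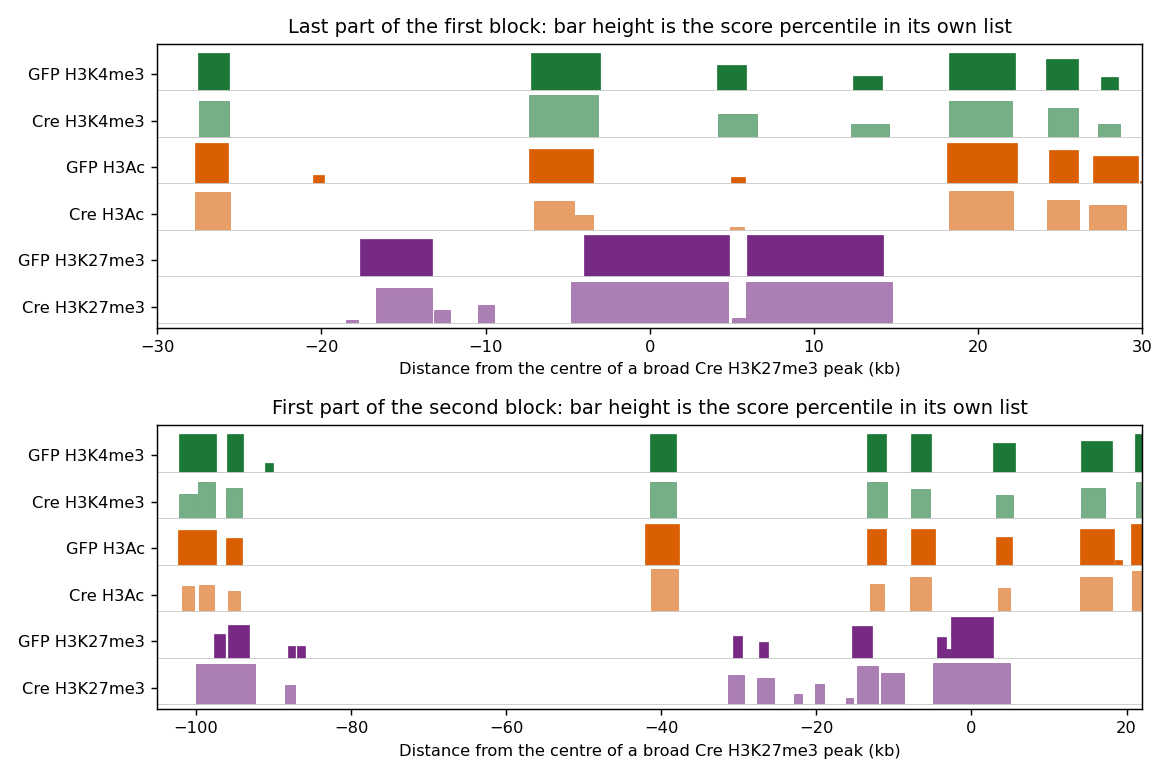
H3K4me3, H3Ac and H3K27me3 peaks around the strongest H3K27me3 peaks, by distance in kb from the centre of a Cre H3K27me3 peak of 9572 bases (top) or 9945 bases (bottom), with bar height as score percentile in the peak's own list. In the lower panel the Cre peak of 9945 bases at the centre stands over 3 GFP peaks that cover 7221 bases together, and the Cre peak of 7559 bases at the left end over GFP peaks of 1457 and 2692 bases.

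H3K27me3 in the left part of the second block differed in both directions. The leftmost region, chr13:23365096-23366300, covered 1179 bases in GFP and 651 in Cre (-22.5 percentile points), and chr13:23383654-23388017 covered 3872 and 3101 bases (+8.92 points). At chr13:23400296-23407854 Cre had 1 peak of 7559 bases (score 1614, percentile 96.9), and GFP had peaks of 1457 and 2692 bases (scores of 154 and 346, percentiles 56.6 and 78.8). This place was chosen after its values were seen. H3K4me3 peaks overlapped it in both libraries. The GFP H3K4me3 peak at chr13:23398089-23402784, 4696 bases with a score of 3100, was listed in Cre as 2 peaks with scores of 1477 and 3100, and the next, at chr13:23404169-23406306, had scores of 3100 in GFP and 2823 in Cre. H3Ac scores there were 1455 in GFP against 348 and 390 in Cre, and at the next peak 422 against 203. The H3Ac region differed by -26.6 percentile points.

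Over the 21 window regions with H3K27me3 in both libraries, 16 differed by 10 percentile points or more (76.2%, list 53.4%). Of these, 10 were higher in Cre (47.6% of the 21, list 26.4%) and the other 6 lower (28.6%). Of the 14 regions from the start of the second block to the end of the window, 8 were higher by 10 points or more and 4 lower. They include chr13:23878840-23882233, which lies beyond the right edge of the block. The median Cre to GFP ratio of width was 1.2 over the 21 regions and 1.01 over the list. Of the Cre H3K27me3 peaks 17 of 39 had no GFP counterpart (43.6%, list 33.6%), and of the GFP peaks 4 of 30 had no Cre counterpart (13.3%, list 30.5%). Most of these peaks were weak, with a median score of 86.1 for the 17 and 74.1 for the 4. Of the 41 H3K4me3 regions ranked above, 3 overlapped H3K27me3 in either library, with a median difference of -9.46 points, and the other 38 had a median of -10.2 points. Of the 68 H3Ac regions, 9 overlapped H3K27me3, with a median of -9.02 points and 4 lower by 10 points or more, and the other 59 had a median of -5.3 points with 16 lower by that much. The part of H3K27me3 in these differences was not tested.

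H3K9me3 had another pattern, with 13 of 18 GFP peaks and 4 of 5 Cre peaks in the stretch between the blocks. They were small, with median widths of 850 and 658 bases and median scores of 60.5 and 55.6 there. GFP peaks without a Cre counterpart were 15 of 18 (list 81.0%), and Cre peaks without a GFP counterpart 2 of 5 (list 39.9%), so the shares were near those of the lists, which differ in length. The highest-scoring was shared, at chr13:22050190-22052605 in GFP (score 300, percentile 95.2) and chr13:22050174-22051638 in Cre (151, percentile 85.7). It overlapped an H3K4me3 peak in both libraries, with scores of 356 and 253, and no H3Ac peak. The second in GFP, chr13:23735364-23737777 (259), lay in the second block inside the H3K4me3 gap of 58.5 kb and had no Cre peak, and the next, chr13:23353274-23354897 (130), lay just before the second block. The other 4 Cre peaks, at chr13:22322643-22323230, chr13:22497177-22497840, chr13:22790693-22791390 and chr13:22986154-22986805, scored 53.1 to 64.3. Most H3K9me3 peaks thus lay in the interval that holds no H3Ac and no H3K27me3, which takes up 1218 kb of the 2.15 Mb window. By bases covered the interval did not stand out. In GFP H3K9me3 covered 1.04% of it, 0.705% of the first block and 1.05% of the second. In Cre it covered 0.214% of the interval and 0.427% of the first block, with no peak in the second.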

How the data were processed

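Of the 18 samples, 8 had a peak list used here, and the other 10 were not analysed here (they are RNA, Rb and input libraries). Groups come from the sample labels, which number all 8 libraries replicate 3 and name 1 biological replicate per mark. Per the submitters' processing notes, MACS 1.4.1 was among the tools, a program that calls peaks, beside bedtools 2.16.2, SAMtools 0.1.18 and BWA, with NCBIM37 as the build. The control library, duplicate handling and thresholds are not given in the sources used here. The labels number the GFP histone input replicate 1 and the Cre histone input replicate 3. The authors deposited, per library, each peak's position and a score with no stated unit. Its lowest value was 50 in the lists. The score rises with read depth and with the contrast to a control, so it was ranked within a list.

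Peaks that overlap the window were kept whole and matched by overlap of at least 1 base. Overlapping peaks of the lists compared were merged into regions, with the highest score and the summed width per library. Percentiles give ties their mean rank. Blocks are runs of regions of the 4 H3K4me3 and H3Ac lists with no gap of 100 kb. The overlap and rank code was tested on simulated data. Python 3.11.15, NumPy 2.4.6, pandas 2.3.3, SciPy 1.17.1 and matplotlib 3.10.9 were used.

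The window, lists and comparisons were chosen with earlier results of these data known. Regions named are, per H3K4me3 and H3Ac list, the 3 highest-scoring (the wider first in ties), widest and narrowest peaks, peaks without a counterpart (all up to 10, otherwise the 3 highest-scoring), first and last peaks of groups, the 3 longest gaps, and H3K27me3 and H3K9me3 peaks (all up to 10 in a list, otherwise the 3 highest-scoring). The text names the leading ones and says where others were chosen by value.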

Additional observations from a re-analysis of the deposited data

How the results depend on the processing

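Of 94 recomputed values, 76 stayed within 1.5 times (counts) or within the interval (shares and medians), and the other 18 moved outside. Peaks were filtered to scores of at least 100, merged where at most 1000 bases apart, cut to equal numbers of top-scoring peaks, limited to those wholly inside the window, matched by overlap of at least 50%, grouped by other gap lengths and ranked within chromosome 13. With peaks merged, H3Ac peaks numbered 65 in GFP and 65 in Cre, their median widths were 3019 and 2786 bases and their spacings 7349 and 7578 bases. The median H3K4me3 width was then 2565 bases in GFP, and 2556 bases in Cre, which stayed within its interval. With a minimum score of 100, H3K27me3 peaks numbered 17 in GFP and 22 in Cre, H3K9me3 peaks 6 and 1, and the H3Ac percentile was 77.2 and 68.7, by construction, since weak peaks leave the list. With a gap of 50000 bases the Cre H3K4me3 peaks made 5 groups. Alternatives to the rank differences and to the widths in Cre were chosen after seeing the data. For H3K4me3 the share of regions lower by 10 points was 29.7% with scores of 3100 or more kept (list 8.97%) and 28.4% with these tied (list 8.11%). By 20 points it was 26.8% (list 4.86%), and for H3Ac 11.8% (list 11.0%). No paired analysis was possible because each mark has 1 library per condition. The depth of the libraries is unknown, so that a missing peak means only that none passed the authors' threshold.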
